A study of Mus musculus with 12 samples.

Results

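The genes described here are 9 neurotrophic and growth factor genes: the ligands *Bdnf*, *Ntf3*, *Gdnf*, *Igf1*, *Igf2*, *Cntf* and *Fgf2* and the receptors *Ntrk2* and *Ntrk3*. They were taken by symbol from a table of 49315 genes, with earlier results of these data known, and all 9 passed the expression filter that left 20290 genes for testing. Their expression was measured by bulk RNA-sequencing of the brains of 12 male mice at 14 d after transient occlusion of the right middle cerebral artery, which lasted 30 min. The recipients were CD45.1 Pep Boy mice, irradiated with the head shielded at an age of 8 to 12 weeks, and stroke followed 8 to 10 weeks after transplantation. In the 6 mice of the WT group, 10% of the transplanted marrow was CD45.2 *Tet2*+/+ and 90% was CD45.1 *Tet2*+/+. In the 6 mice of the *Tet2*-KO group, the 10% share was CD45.2 *Tet2*-/- and the remaining 90% was again CD45.1 *Tet2*+/+. All recipients therefore kept *Tet2* in the brain's own cells, and the groups differed only in a minority of the donor marrow. No sham-operated brains were sequenced among these libraries, so the comparison addresses how the donor genotype bears on the injured brain and not what stroke does.

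Neurotrophic factors are secreted proteins that keep neurons and glia alive and shape their connections. BDNF and neurotrophin 3, encoded by *Bdnf* and *Ntf3*, act mainly through the receptor tyrosine kinases TrkB and TrkC, encoded by *Ntrk2* and *Ntrk3*. GDNF signals through a GPI-anchored co-receptor and the kinase RET, and CNTF through a receptor complex that holds the shared subunit gp130. IGF-I and IGF-II act on the IGF-I receptor, are carried by binding proteins, and IGF-II is cleared by the IGF-II receptor. FGF2 is a heparin-binding factor that acts on FGF receptors. In the adult brain, *Bdnf* is transcribed chiefly by neurons and is driven by activity, *Igf2* comes largely from the meninges, choroid plexus and vessels, and *Igf1* is known to be made by microglia and macrophages after injury.

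The genes lie on 8 mouse chromosomes (GRCm38 coordinates, GENCODE M21). *Bdnf* is at chr2:109674700-109727007 on the plus strand with 11 annotated transcripts from 9 start sites, and *Igf2* is at chr7:142650766-142666816 on the minus strand with 9 transcripts from 9 start sites. *Igf1* is at chr10:87858265-87937042 on the plus strand, *Ntrk2* at chr13:58806569-59133970 on the plus strand, and *Ntrk3* at chr7:78175959-78738012 on the minus strand. *Fgf2* is at chr3:37348346-37410108, *Gdnf* at chr15:7810846-7837575, *Ntf3* at chr6:126101412-126166910 and *Cntf* at chr19:12763660-12765632. The counts are per gene over exons, so transcripts from different start sites, and the kinase-bearing and truncated forms of *Ntrk2* and *Ntrk3*, were not separated. Some of the genes share annotated exonic bases with another gene. Of the exonic bases of *Cntf*, 78.9% are shared with *Zfp91*. Of those of *Igf2*, 62.8% are shared with the protein-coding gene *Gm49394*, which has no row in the counts. *Bdnf* shares 14.4% of its exonic bases with the antisense gene *Gm45346*, and *Fgf2* 9.4% with *Nudt6* on the opposite strand. *Zfp91* and *Gm49394* lie on the same strand as *Cntf* and *Igf2*, so reads in those shared bases cannot be told apart by strand. For *Bdnf* and *Fgf2* the partner is on the opposite strand, and the strand setting of the counting is not given in the sources used here. The share of reads that fell in the shared bases was not measured, so the values of these 4 genes carry an uncertainty of unknown size.

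RefSeq promoter windows (GRCm38.p6) matched 8 of the 9 genes, with 19 windows in all and 7 for *Bdnf* alone. The 250 bases before each start were searched on both strands for 3 motifs. The half-site of the cAMP response element (CGTCA) stood in 4 of the 19 windows, beside 17.8% of all 32851 promoter windows of the same length. The GC box (GGGCGG) stood in 7, beside 32.7%, and the remaining promoter box (CCAAT) in 4, beside 33.8%. The windows shown are for *Bdnf*, the activity-regulated neuronal ligand gene, and *Igf2*, the most abundant ligand gene. Neither overlaps an annotated exon, and both lie in introns of transcripts that begin further upstream. Capitals mark the response element half-site in the first and the GC box in the second.
*Bdnf*, chr2:109692186-109692435, plus strand: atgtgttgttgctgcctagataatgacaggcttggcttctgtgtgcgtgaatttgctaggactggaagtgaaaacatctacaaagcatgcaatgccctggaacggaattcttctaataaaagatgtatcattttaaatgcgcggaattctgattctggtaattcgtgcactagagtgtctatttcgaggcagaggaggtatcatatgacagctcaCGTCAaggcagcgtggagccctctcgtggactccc
*Igf2*, chr7:142657497-142657746, minus strand: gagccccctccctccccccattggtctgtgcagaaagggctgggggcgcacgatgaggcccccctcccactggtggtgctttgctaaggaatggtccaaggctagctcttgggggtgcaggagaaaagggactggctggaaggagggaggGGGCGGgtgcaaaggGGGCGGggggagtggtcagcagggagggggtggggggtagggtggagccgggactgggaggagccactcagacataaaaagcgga
The *Bdnf* match began 35 bases before the transcript start and was the only one in the 7 *Bdnf* windows. The first of the 2 *Igf2* matches began 100 bases before its start. These are matches of letters, and the gene-level counts do not show which start was used.

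Library totals ran from 12000261 to 15340787 counts in WT and from 12625047 to 21049763 in *Tet2*-KO mice. *Tet2* itself was at 126 to 147 TMM-scaled counts per 1000000 (CPM) in WT and 117 to 137 in *Tet2*-KO brains, which is -0.01 ± 0.051 on the log2 scale (SE; edgeR adjusted p = 0.934). The paper reports donor chimerism in blood, and the share of donor cells in these brains is not given. Of the 20290 genes, 5 passed an adjusted p of 0.05 in edgeR's quasi-likelihood test (0.0246%), all of them lower in the *Tet2*-KO group. Markers of neurons, astrocytes and oligodendrocytes were abundant in every library, and no marker gene of the 13 lists used was without a count. Among the libraries, WT replicate 2 and *Tet2*-KO replicate 5 stood apart in the genes described here, as given beside each result, and *Tet2*-KO replicates 4 and 2 held the most cerebellar marker RNA (71.6 and 47.5 CPM summed over 5 genes, against 16.5 to 22.6 in WT).

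None of the 9 genes passed the adjusted threshold. *Igf1* and *Igf2* had the lowest fold changes and *Ntrk3* was among the highest, and these 3 reached an unadjusted p below 0.05: 1 of the 9 was higher, where 10.8% of all tested genes were, and 2 of the 9 were lower, where 12.2% of all tested genes were. *Igf1* was at 0.483 of its WT level (95% confidence interval 0.265 to 0.880) and *Igf2* at 0.564 (0.335 to 0.950), while *Ntrk3* was at 1.15 (1.01 to 1.30). The median log2 fold change of the 9 genes was -0.18, beside 0.01 over all genes tested. For none of the 9 did the values of the groups fail to overlap, which 1.09% of all tested genes did.

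**Figure D1:**
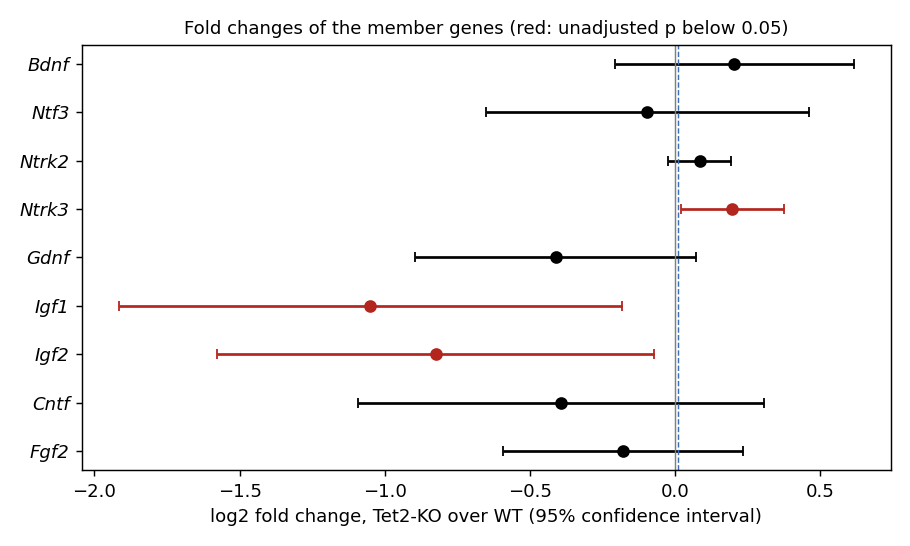
Log2 fold changes of the 9 genes, *Tet2*-KO over WT (x axis), with 95% confidence intervals from the edgeR fit over 12 libraries. Red marks an unadjusted p below 0.05 (*Ntrk3*, *Igf1* and *Igf2*), the grey line is 0 and the dashed line the median of all tested genes, 0.01; the intervals of the other 6 genes cross 0.

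*Igf1* encodes the growth factor IGF-I. The WT libraries had 65.4, 111, 55.7, 66.6, 59.7 and 62.0 CPM in the order of their replicate numbers, and the *Tet2*-KO libraries 13.6, 22.6, 23.5, 44.2, 77.7 and 22.5 CPM. *Tet2*-KO replicates 1, 2, 3, 4 and 6 therefore lay below every WT library, and replicate 5 lay above all WT libraries but replicate 2. The means were 70.0 ± 20.4 CPM in WT and 34.0 ± 23.7 CPM in *Tet2*-KO brains (SD, n = 6 each), and the coefficient of variation was 29.1% in WT and 69.6% in *Tet2*-KO. The log2 fold change was -1.05 ± 0.39 (SE; edgeR adjusted p = 0.160). In RNA of bulk brain tissue, fewer cells of a type and less RNA per cell cannot be told apart, here and in the results that follow.

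*Igf2* encodes IGF-II, the sister ligand. Its WT libraries held 304, 531, 319, 374, 321 and 375 CPM and its *Tet2*-KO libraries 95.2, 171, 137, 313, 400 and 140 CPM. *Tet2*-KO replicates 1, 2, 3 and 6 were below all WT libraries, replicate 4 was inside the WT range and replicate 5 above all WT libraries but replicate 2. The means were 371 ± 84.0 CPM and 209 ± 120 CPM, a difference of -0.83 ± 0.34 on the log2 scale (edgeR adjusted p = 0.186). *Igf1* and *Igf2* ranked the libraries alike, with a Pearson r of log2 CPM of 0.981 over the 12 libraries and of 0.967 for the deviations from the group means, as a description. The ratio of *Igf2* to *Igf1* counts, a quantity chosen after the values were seen, ran from 4.64 to 6.05 in WT and from 5.15 to 7.58 in *Tet2*-KO libraries, so the ranges of the ratio overlapped between the groups.

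**Figure D2:**
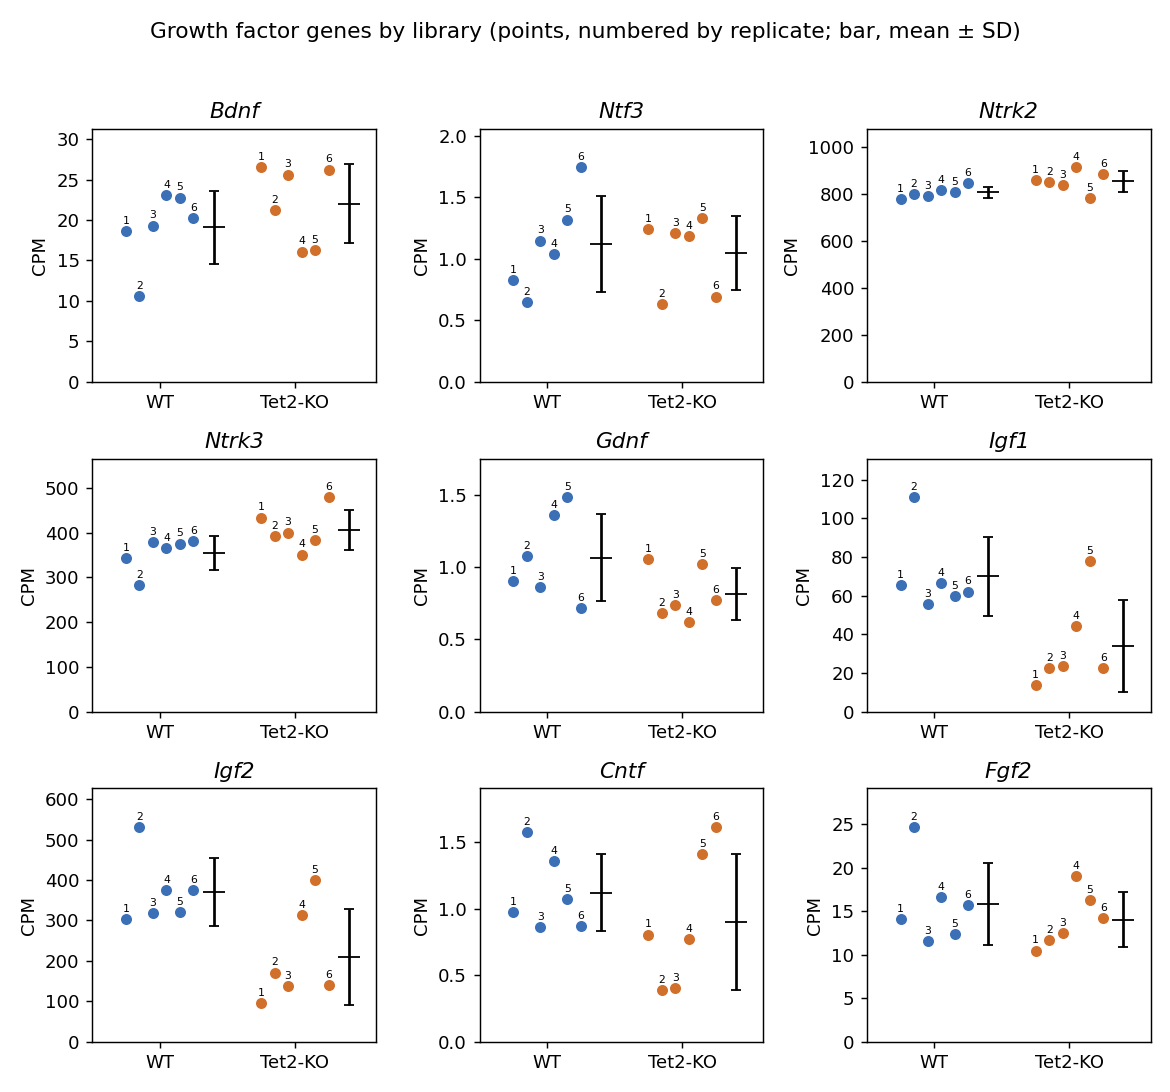
CPM of the 9 genes (y axis, from 0, TMM-scaled) in each of the 6 WT and 6 *Tet2*-KO libraries, numbered by replicate, with the mean ± SD beside each group. For *Igf1* and *Igf2* most *Tet2*-KO libraries are below the WT libraries, with *Tet2*-KO replicate 5 at 77.7 and 400 CPM, and WT replicate 2 is the highest for both and the lowest for *Bdnf*, at 10.5 CPM.

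Whether both ligands passed the adjusted threshold depended on the test used and, in edgeR, on *Tet2*-KO replicate 5. Without it, the log2 fold change was -1.46 for *Igf1* (edgeR adjusted p = 0.0187) and -1.11 for *Igf2* (adjusted p = 0.0389), and 11.0% of all genes tested in that fit passed the threshold. With limma-voom and sample quality weights over all 12 libraries, which weight down variable libraries, *Igf1* was at -1.26 (adjusted p = 0.0233) and *Igf2* at -0.98 (adjusted p = 0.0430), where 9.18% of all tested genes passed. Without WT replicate 2, the highest WT library for both genes, *Igf1* was at -0.87 (adjusted p = 0.340) and *Igf2* at -0.69 (adjusted p = 0.377). Over all 20 alternatives the direction of both genes held.

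**Figure D3:**
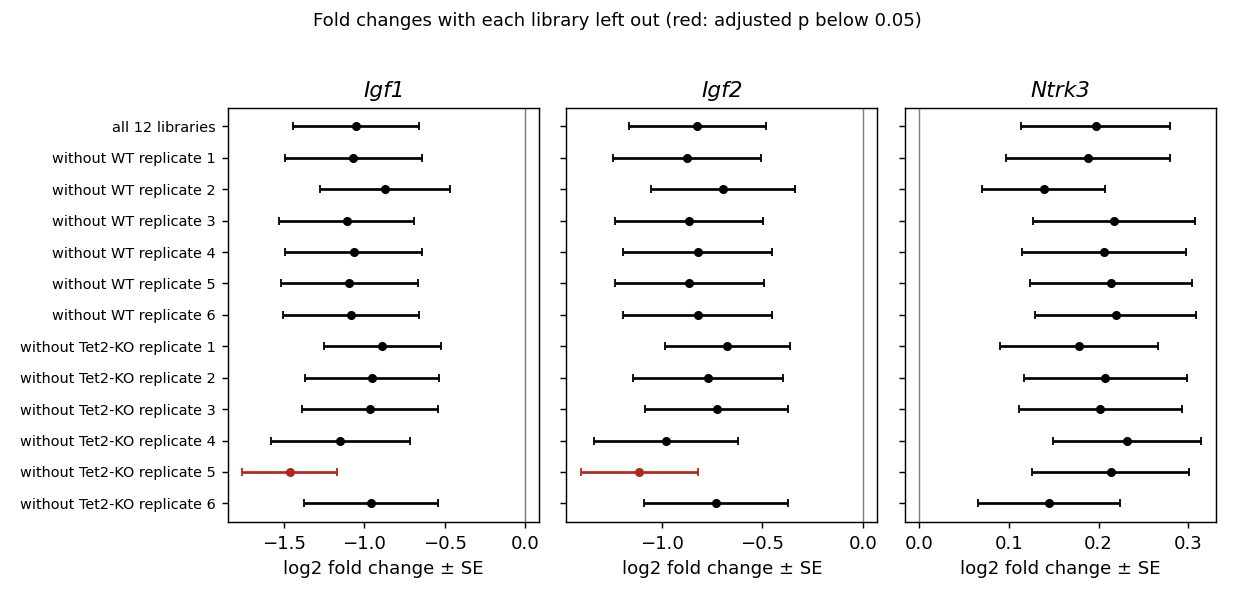
Log2 fold changes ± SE (x axis) of *Igf1*, *Igf2* and *Ntrk3* with all 12 libraries and with each library left out in turn (y axis), from edgeR fits. Red marks an adjusted p below 0.05, which occurred for *Igf1* and *Igf2* without *Tet2*-KO replicate 5, and the values of *Ntrk3* stay between 0.14 and 0.23.

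Markers of other cell types moved with *Igf1* and *Igf2*. The 7 activated phagocyte markers (*Spp1*, *Gpnmb*, *Lyz2*, *Cd68*, *Itgax*, *Ms4a7* and *Lpl*) were all lower in the *Tet2*-KO group, 6 of them at an unadjusted p below 0.05, and their summed level was 1133 to 2854 CPM in WT and 82.4 to 1664 CPM in *Tet2*-KO libraries. The 6 meningeal fibroblast markers, among them *Col1a1*, *Dcn* and *Lum*, were lower too, all at an unadjusted p below 0.05, with summed levels of 439 to 1037 CPM in WT and 103 to 571 CPM in *Tet2*-KO libraries. None of these 13 markers was at 0 over the libraries, and none passed the adjusted threshold. Of all tested genes, 12.2% were lower at an unadjusted p below 0.05. *Tet2*-KO replicate 5 had the highest sums of its group in both lists, 1664 and 571 CPM, and WT replicate 2 the highest of all, 2854 and 1037 CPM. *Igf1* followed the phagocyte sum with r = 0.989 on the log2 scale (0.980 for deviations from the group means, 0.982 without the 2 libraries farthest from the median) and the fibroblast sum with r = 0.981. *Igf2* followed them with r = 0.968 and 0.959, and with a Spearman rho of 0.797 for each. The likeness was not particular to these lists: *Igf2* followed the mural cell sum with r = 0.953 (rho 0.965) and the microglia sum with 0.935, and *Igf1* followed them with 0.929 and 0.914. By Pearson r it was looser for the endothelial and choroid plexus sums, at 0.759 and 0.630 for *Igf2* and 0.702 and 0.575 for *Igf1*. By rank, *Igf2* followed the endothelial sum (rho 0.790) about as closely as the phagocyte and fibroblast sums. The choroid plexus sum stayed looser, with a rho of 0.448 for *Igf2*. The part of these cell types in the levels of *Igf1* and *Igf2* was not tested.

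**Figure D4:**
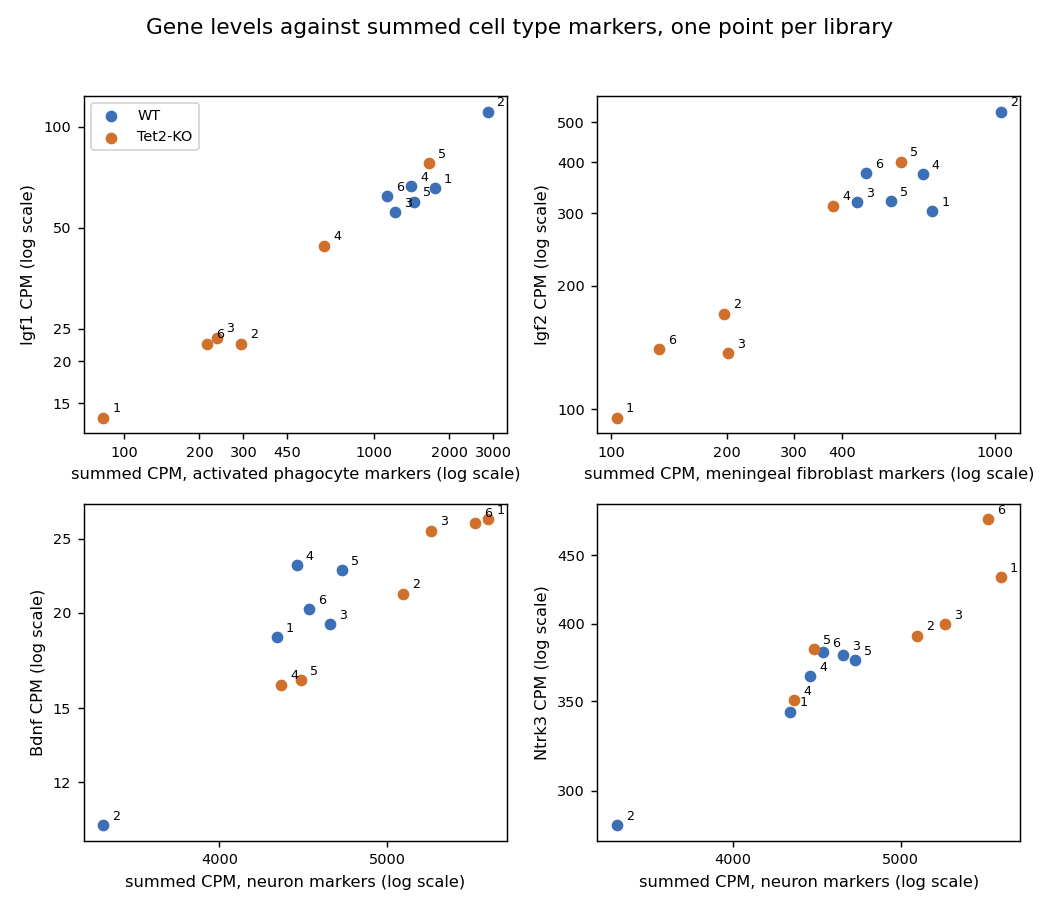
Levels of *Igf1*, *Igf2*, *Bdnf* and *Ntrk3* (y axes, CPM, log scale) against the summed CPM of a marker list (x axes, log scale), with 1 point per library numbered by replicate. *Igf1* is higher where the activated phagocyte sum is higher, *Igf2* where the fibroblast sum is, and *Bdnf* and *Ntrk3* where the neuron sum is, and WT replicate 2 is at an end of each plot.

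Other marker lists moved less than the phagocyte and fibroblast lists. All 6 choroid plexus markers had lower means in the *Tet2*-KO group, 3 of them at an unadjusted p below 0.05 in edgeR. At that level 2 of 6 endothelial and 1 of 5 mural cell markers were lower, and no marker of these lists was higher. Among all tested genes, 12.2% were lower at that level and 10.8% higher. Of the 7 astrocyte markers, 1 was higher at it. Summed microglia markers ran from 783 to 1378 CPM in WT and from 365 to 992 CPM in *Tet2*-KO libraries, mural cell markers from 213 to 290 and from 158 to 252, and choroid plexus markers from 504 to 666 and from 405 to 695. Endothelial markers were at 244 to 296 CPM in WT and 228 to 283 CPM in *Tet2*-KO libraries, astrocyte markers at 6203 to 7292 and 6141 to 7496, and oligodendrocyte markers at 4398 to 5782 and 3885 to 5620. Dentate gyrus markers were at 76.0 to 108 and 90.5 to 112 CPM, cerebellum markers at 16.5 to 22.6 and 13.9 to 71.6, and the immediate early genes at 288 to 768 and 273 to 826.

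The other components of IGF signalling had no common direction. *Igf2r*, which encodes the receptor that clears IGF-II, had 111, 116, 93.0, 101, 96.9 and 92.4 CPM in WT and 75.7, 82.8, 89.8, 84.1, 91.2 and 74.8 CPM in *Tet2*-KO libraries. Every *Tet2*-KO value was below every WT value. *Igf2r* was the 1 gene of the 78 other pathway genes tested whose groups did not overlap, a share near the 1.09% of all tested genes. Its log2 fold change of -0.29 ± 0.068 had the smallest adjusted p of those 78 (0.110). The signalling receptor *Igf1r* was at 163 ± 6.55 CPM in WT and 171 ± 5.68 CPM in *Tet2*-KO brains (log2 fold change 0.07, adjusted p = 0.347), and its mean was not lower in the *Tet2*-KO group. Of the 10 genes for IGF-binding proteins and their proteases, 8 were tested, 7 had lower and 1 had higher means in the *Tet2*-KO group. Of these, 4 of the lower genes and the higher gene had an unadjusted p below 0.05, a level that 12.2% of all tested genes reached with lower and 10.8% with higher means. *Igfbp4* was at 114 ± 17.8 CPM and 79.0 ± 20.6 CPM (log2 fold change -0.53, adjusted p = 0.123) and *Igfbp7* at 42.4 ± 10.9 and 26.3 ± 8.98 CPM (-0.69, adjusted p = 0.136). The other 2, named after their values were seen, were *Igfbp2* at -0.56 and *Igfbp5* at -0.53. *Pappa2*, a protease that cleaves IGF-binding proteins, went the other way, from 2.84 ± 0.419 to 3.90 ± 0.711 CPM (0.46, adjusted p = 0.124).

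*Bdnf*, the activity-regulated neurotrophin, had 18.6, 10.5, 19.3, 23.1, 22.8 and 20.2 CPM in WT and 26.5, 21.2, 25.6, 16.1, 16.3 and 26.2 CPM in *Tet2*-KO libraries. *Tet2*-KO replicates 1, 3 and 6 were above all WT libraries, while replicates 4 and 5 were below all WT libraries but replicate 2, so *Tet2*-KO values lay on both sides of most WT values. The log2 fold change was 0.20 ± 0.19 (edgeR adjusted p = 0.557), with a 95% interval of -0.21 to 0.62, and without WT replicate 2 it was 0.08. *Ntf3*, whose product is the main TrkC ligand, was near the limit of counting, with 9 to 23 reads a library and means of 1.12 ± 0.387 CPM in WT and 1.05 ± 0.304 CPM in *Tet2*-KO brains. Its log2 fold change of -0.10 ± 0.26 (adjusted p = 0.865) changed sign when WT replicate 6 (0.07) or *Tet2*-KO replicate 2 (0.03) was left out.

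The receptors were far more abundant and less variable. *Ntrk3*, for TrkC, had 344, 283, 379, 365, 375 and 381 CPM in WT and 433, 392, 400, 351, 383 and 479 CPM in *Tet2*-KO libraries. All *Tet2*-KO libraries but replicate 4 exceeded every WT library, and the lowest value was that of WT replicate 2. Means were 354 ± 37.8 and 406 ± 44.6 CPM, and the log2 fold change was 0.20 ± 0.083 (edgeR adjusted p = 0.179). *Ntrk2*, for TrkB, had 778, 799, 794, 816, 810 and 849 CPM in WT and 861, 852, 837, 915, 784 and 887 CPM in *Tet2*-KO libraries. Its coefficient of variation was 2.99% in WT, the lowest of the 9 genes, and 4 of 6 *Tet2*-KO libraries were above all WT libraries. The log2 fold change of *Ntrk2* was 0.08 ± 0.051 (edgeR adjusted p = 0.332), with a 95% interval of the ratio to WT from 0.984 to 1.14.

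Of the 8 receptor and co-receptor genes for neurotrophins, 7 had higher means in the *Tet2*-KO group and 5 were higher at an unadjusted p below 0.05, with none lower at that level, beside 10.8% of all tested genes higher and 12.2% lower. *Sorcs1*, *Sorcs2* and *Sorcs3*, of the sortilin family of sorting receptors, had log2 fold changes of 0.21 ± 0.066 (adjusted p = 0.123), 0.14 ± 0.050 (0.148) and 0.28 ± 0.091 (0.126). The other 2 were *Ntrk3* and *Sort1*, the latter at 0.15 and named after its value was seen. *Ngfr*, the low-affinity receptor p75, was at 5.37 ± 0.675 CPM in WT and 4.94 ± 0.935 CPM in *Tet2*-KO brains (log2 fold change -0.11, adjusted p = 0.655). Of the 12 genes for TRK adaptors and signalling, an unadjusted p below 0.05 was reached by 2 with higher and 3 with lower means. Among the SHC adaptors, *Shc1* was at -0.50 ± 0.19 (adjusted p = 0.162) and *Shc2* at 0.25 ± 0.087 (adjusted p = 0.135), and the adaptor *Sh2b2* was at -0.57 ± 0.17 (adjusted p = 0.123).

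Neuronal markers moved with *Bdnf* and *Ntrk3*. Of the 8 neuron markers, 6 were higher in the *Tet2*-KO group at an unadjusted p below 0.05 and none passed the adjusted threshold. Their summed level was 3428 to 4705 CPM in WT and 4341 to 5711 CPM in *Tet2*-KO libraries, WT replicate 2 being the lowest of all. The forebrain excitatory markers were at 1788 to 2979 CPM and 2564 to 3989 CPM, with 3 of 5 higher at an unadjusted p below 0.05. Of all tested genes, 10.8% were higher at that level. Across the 12 libraries, log2 CPM of *Bdnf* followed the log2 neuron sum with r = 0.912 (0.772 without the 2 farthest libraries) and *Ntrk3* with r = 0.949 (0.888). *Ntrk2*, which astrocytes also express, followed the neuron sum with r = 0.462 (0.163 for deviations from the group means). It followed the astrocyte sum with r = 0.373 (rho 0.210). Its largest correlations were negative, with the activated phagocyte sum (r = -0.667, rho -0.818) and the meningeal fibroblast sum (r = -0.650, rho -0.762). For deviations from the group means these were -0.419 and -0.391. For *Bdnf* and *Ntrk3*, too, the neuron sum was not the only close one. *Bdnf* opposed the microglia sum with r = -0.876 (rho -0.965, and r = -0.905 without the 2 farthest libraries). *Ntrk3* opposed the microglia sum with r = -0.834 and the meningeal fibroblast sum with r = -0.844. The part of neuronal RNA content in the levels of *Bdnf* and *Ntrk3* was not tested.

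*Gdnf*, the founding ligand of the GDNF family, was scarce, with 9 to 21 reads a library. It was at 0.714 to 1.48 CPM (median 0.989) in WT and 0.617 to 1.05 CPM (median 0.755) in *Tet2*-KO libraries, and all 6 *Tet2*-KO libraries were below the WT mean of 1.07 CPM although the groups overlapped. The log2 fold change was -0.41 ± 0.23 (edgeR adjusted p = 0.290). Its receptors were measured well: *Gfra1* was at 57.1 ± 2.98 and 59.4 ± 2.95 CPM (adjusted p = 0.518) and *Ret* at 19.9 ± 2.80 and 18.5 ± 3.65 CPM (adjusted p = 0.687). The co-receptors for other family ligands had higher means, *Gfra2*, for neurturin, with a log2 fold change of 0.18 ± 0.059 (adjusted p = 0.125) and *Gfra4*, for persephin, with 0.36 ± 0.10 (adjusted p = 0.116).

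*Cntf*, a cytokine of the interleukin-6 group, had 6 to 22 reads a library and ran from 0.862 to 1.58 CPM in WT and from 0.389 to 1.62 CPM in *Tet2*-KO libraries. The lowest values, of replicates 2 and 3, and the highest, of replicate 6, were all in the *Tet2*-KO group, whose coefficient of variation was 56.9% against 25.8% in WT. The log2 fold change was -0.39 ± 0.33 (edgeR adjusted p = 0.502), and it was -0.21 without *Tet2*-KO replicate 2, -0.25 without replicate 3 and -0.63 without replicate 6 of that group. *Cntfr*, the ligand-specific receptor subunit, was at 80.0 ± 6.08 and 86.4 ± 5.07 CPM (adjusted p = 0.256) and *Lifr* at 109 ± 4.64 and 113 ± 4.27 CPM (adjusted p = 0.520). *Il6st*, for the shared subunit gp130, was at 237 ± 43.1 CPM in WT and 173 ± 38.0 CPM in *Tet2*-KO brains (log2 fold change -0.45 ± 0.15, adjusted p = 0.134). *Osmr* and its ligand *Osm*, of the same cytokine group, were at -0.86 ± 0.30 (adjusted p = 0.148) and -1.01 ± 0.37 (adjusted p = 0.147). *Osm* had 14 to 49 reads a library in WT and 8 to 26 in *Tet2*-KO. *Il6st*, *Osmr* and *Osm* were the genes of the 10 in this list that reached an unadjusted p below 0.05, all with lower means, beside 12.2% of all tested genes.

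*Fgf2*, the basic fibroblast growth factor, had 14.1, 24.7, 11.6, 16.7, 12.4 and 15.7 CPM in WT and 10.5, 11.7, 12.4, 19.0, 16.2 and 14.2 CPM in *Tet2*-KO libraries. The groups overlapped through most of their range, WT replicate 2 was highest and the log2 fold change was -0.18 ± 0.19 (edgeR adjusted p = 0.618). It was -0.0072 without WT replicate 2, -0.11 without *Tet2*-KO replicate 1 and -0.29 without *Tet2*-KO replicate 4. Of the other FGF ligands, *Fgf7*, known as a factor of mesenchymal cells, had the lowest fold change of the pathway genes tested, from 2.10 ± 0.716 to 0.995 ± 0.510 CPM (-1.13 ± 0.30, adjusted p = 0.112), with *Tet2*-KO replicate 5 again highest in its group at 1.96 CPM. *Fgf7* rested on few reads, 17 to 49 a library in WT and 9 to 25 in *Tet2*-KO. *Fgf9* was at 12.5 ± 1.40 and 14.7 ± 1.98 CPM (0.23, adjusted p = 0.178) and *Fgf5* at 1.57 ± 0.521 and 1.87 ± 0.443 CPM (adjusted p = 0.501). Of the 11 tested genes for FGF receptors and feedback inhibitors, *Fgfr2* and *Fgfrl1* had lower means at an unadjusted p below 0.05 and none had a higher mean at that level. Over all tested genes, 12.2% were lower and 10.8% higher at that level. *Fgfr1* was at 116 ± 10.4 and 104 ± 13.9 CPM (adjusted p = 0.285), *Fgfr2* at 81.2 ± 7.33 and 71.3 ± 8.78 CPM (log2 fold change -0.19 ± 0.080, adjusted p = 0.187) and *Fgfr3* at 93.8 ± 6.48 and 95.1 ± 7.68 CPM (adjusted p = 0.883). *Fgfrl1*, a receptor without a kinase, was at -0.35 ± 0.14 (adjusted p = 0.159).

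Levels were compared between genes per kilobase of annotated exon, a scale on which the many long isoforms of the receptor genes lower their values. In WT brains the order by CPM per kilobase was *Igf2* (64.8 ± 14.7), *Ntrk2* (41.9 ± 1.25), *Ntrk3* (11.7 ± 1.25), *Igf1* (7.07 ± 2.06), *Bdnf* (3.07 ± 0.733), *Fgf2* (2.34 ± 0.699), *Cntf* (1.04 ± 0.270), *Ntf3* (0.654 ± 0.226) and *Gdnf* (0.290 ± 0.082). In *Tet2*-KO brains *Ntrk2* (44.4 ± 2.32) stood above *Igf2* (36.6 ± 20.9), and *Bdnf* (3.54 ± 0.785) was beside *Igf1* (3.43 ± 2.39). In WT, *Igf2* and *Ntrk2* did not overlap in any library, whereas the ranges of the neighbours *Ntrk3* and *Igf1*, *Bdnf* and *Fgf2*, *Cntf* and *Ntf3*, and *Ntf3* and *Gdnf* did. In *Tet2*-KO brains the range of *Igf2* spanned that of *Ntrk2*, and the range of *Igf1* spanned that of *Bdnf*.

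Of 88 further pathway genes, listed by symbol in 10 groups with the 9 genes above, 78 were tested. An unadjusted p below 0.05 was reached by 12 of the 78 with higher and 15 with lower means, beside 10.8% and 12.2% of all genes, and none passed the adjusted threshold. Their median log2 fold change was -0.05, against 0.01 over all genes tested. Without *Tet2*-KO replicate 5, 16 of the 78 passed the adjusted threshold, 7 higher and 9 lower, where 11.0% of all genes tested passed. DESeq2's Wald test on the same filtered genes called 10 of them, 5 in each direction, where it called 7.22% of all tested genes, and on all genes with a count it called 8, where it called 2.39%. *Igf2r*, *Igfbp4*, *Fgf7*, *Gfra4*, *Egfr* and *Sh2b2* were among the genes called in each of these settings and by limma-voom, which called 12, where it called 9.18% of all tested genes. In the list of other trophic factors, 2 of 14 genes with higher means and 1 with a lower mean reached an unadjusted p below 0.05. The neuropeptide precursor gene *Vgf* was at 0.32 ± 0.11 (adjusted p = 0.128), *Nrg1* (neuregulin 1) at 0.14 ± 0.06 (adjusted p = 0.202) and *Egfr*, for the EGF receptor, at -0.33 ± 0.095 (adjusted p = 0.118).

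**Figure D5:**
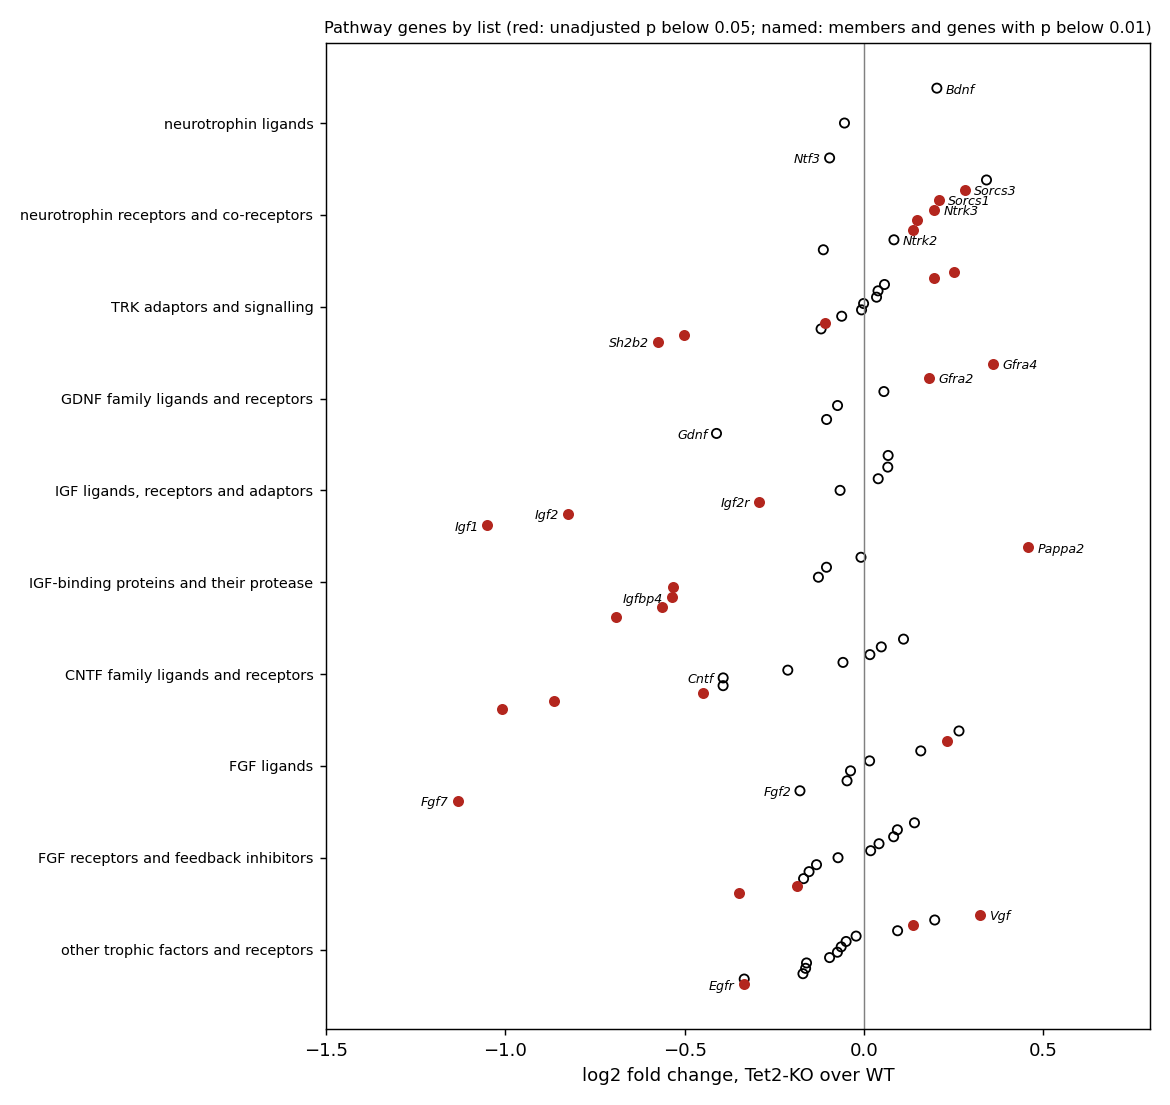
Log2 fold changes, *Tet2*-KO over WT (x axis), of every tested gene of the 10 lists (y axis), with the 9 genes described here and those with an unadjusted p below 0.01 named. Red points have an unadjusted p below 0.05. The neurotrophin receptors sit mostly to the right of 0, and the IGF-binding proteins and CNTF family mostly to the left.

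The genes whose log2 CPM was most like that of each gene over the 12 libraries were found among the tested genes with a mean of at least 1 CPM. For *Igf1* they included *Cp* (ceruloplasmin) and *Bgn* (the matrix proteoglycan biglycan), each with a Pearson r of 0.995 and with Spearman rho of 0.965 and 0.993. For *Igf2* they were the basement membrane genes *Nid1* (r = 0.990), *Col18a1* (0.989) and *Col4a5* (0.989). For *Ntrk3* they were *Celf2* (0.986), *Rabgap1* (0.983) and *Map1b* (0.982), for *Bdnf* *Ypel1* (0.967), *Dffa* (0.966) and *Kcnab1* (0.963), for *Fgf2* *Sgms2* (0.970), *Sp2* (0.951) and *Etfa* (0.949), and for *Ntrk2* *Ncam1* (0.936), *Mid2* (0.912) and *Cdh4* (0.889). The scarce genes had looser partners, which included *Synpo2* (0.916) and *Plekhg1* (0.903) for *Cntf* and were *Gm15737* (0.846), *Mettl3* (0.838) and *Osbpl8* (0.829) for *Gdnf* and *Actr8* (0.816), *Gm37195* (0.811) and *Pgap3* (0.805) for *Ntf3*. Spearman rho of the partners ran from 0.895 to 0.965 for *Igf2* and from 0.769 to 0.986 for the other 7 genes. The deviations from the group means gave r values of 0.991 for both named partners of *Igf1* and 0.980 to 0.983 for those of *Igf2*, so these likenesses did not rest on the group difference alone. Among the 9 genes, *Bdnf* followed *Ntrk3* with r = 0.865 and opposed *Igf1* with r = -0.736, *Igf2* with -0.754 and *Fgf2* with -0.797. All these correlations share the same 12 libraries and their scaling, and are given as descriptions.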

How the data were processed

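RNA from the brains of 12 mice was rRNA-depleted and sequenced as paired reads. The paper's results speak of whole brains, and its discussion of whole hemispheres, as the tissue used. According to the methods and the submitters' processing notes, the authors trimmed reads with Trimmomatic 0.36, aligned them to mm10 with STAR 2.5.2b and counted unique reads in exons with featureCounts of Subread 1.5.2. They deposited raw read counts per gene, without normalization. The annotation release and strand setting are not given in the sources used here. Groups were taken from the titles, since the treatment entry of the labels names control cells for all mice. Symbols and exonic lengths were taken from GENCODE M21, which named 48970 of 49315 identifiers.

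Genes with low counts were removed with filterByExpr and library sizes were set by TMM. The groups were then compared with the robust quasi-likelihood F test of edgeR 4.0.16 in R 4.3.3 (12 libraries, no covariates), with Benjamini-Hochberg adjustment over all tested genes and a threshold of 0.05. SE is the log2 fold change over the square root of F. CPM are counts per 1000000 of the TMM-scaled library size, and log2 CPM used a prior count of 2. The filter kept all 9 genes, so no separate permutation test was needed. DESeq2 1.42.0, limma 3.58.1, other scalings and filters and leaving out each library were alternatives. The pipeline was tested on simulated data. The 9 genes, the gene lists and the naming rule (the 9 genes, the 3 smallest p of each list, main receptors, and the 3 most alike genes) were chosen with earlier results of these data known. Nothing states separate batches, and low counts, under 25 reads a library for *Ntf3*, *Gdnf* and *Cntf*, add counting error. The values of 3 genes that the naming rule selects are not reported here.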

Additional observations from a re-analysis of the deposited data

Results flagged for a closer look

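WT replicate 2 lay far from the other WT libraries in 3 of the 9 genes. Its *Igf1* level was 111 CPM, where the other WT libraries ranged from 55.7 to 66.6 CPM, and the gap to its nearest neighbour was 0.802 of the whole range of the group. Its *Igf2* level was 531 CPM against 304 to 375 CPM (gap 0.685), and its *Bdnf* level was 10.5 CPM against 18.6 to 23.1 CPM (gap 0.641). Each gap exceeded the 95% critical value of Dixon's test for 6 values. With 18 groups of values examined, chance alone flags about 1 in 20. The same library had the highest activated phagocyte and meningeal fibroblast sums, 2854 and 1037 CPM, and the lowest neuron sum, 3428 CPM. Their part in these 3 values was not tested.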

How the results depend on the processing

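Of the 257 values recomputed under alternatives, 242 kept their direction and their side of the threshold, or for counts stayed within 1.5 times. The number of the 9 genes past the adjusted threshold was 0 with all libraries and edgeR, 2 with limma-voom and 0 to 2 when 1 library was left out (2, *Igf1* and *Igf2*, without *Tet2*-KO replicate 5). At an unadjusted p below 0.05 it was 3, and 0 to 4 with 1 library left out, being 0 once WT replicate 2 was removed and 1 once *Tet2*-KO replicate 1 or 6 was. Of the other pathway genes, 10 passed with DESeq2, 12 with limma-voom, 8 with DESeq2 on all genes with a count, an alternative added after the data were seen, and 0 to 16 with 1 library left out. With limma-voom *Igf1* was at -1.26 and *Igf2* at -0.98. With 1 library left out, *Igf1* ran from -1.46 to -0.87, *Igf2* from -1.11 to -0.68 and *Ntf3* from -0.21 to 0.069, with 0.034 when *Tet2*-KO replicate 2 was removed. The cause of these shifts was not tested.

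Over all genes, 5 calls became 1464 with DESeq2 (902 on all genes with a count), 1863 with limma-voom, 44 without a filter, 0 with at least 10 counts in every library and 2257 without *Tet2*-KO replicate 5. Under upper quartile scaling, 3009 genes were higher and 2129 lower at an unadjusted p below 0.05, against 2201 and 2477, and the median shifted from 0.01 to 0.04. The shared replicate numbers do not pair the mice by any label, and same-numbered libraries correlated at -0.17 to 0.23 in their deviations, 1 of 6 pairs being over 0.1. With a replicate block, 0 of the 9 genes and 0 of all genes passed, 3 of the 9 had an unadjusted p below 0.05, and *Igf1* was at -1.24 and *Igf2* at -0.99. Depth was lowest for *Ntf3*, *Gdnf* and *Cntf*, with 6 to 23 reads a library.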

Other observations

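Of the 88 further pathway genes, 10 did not pass the expression filter. *Igfals*, which encodes the acid-labile subunit of the circulating IGF complex, had 33 reads over the 6 WT libraries and 11 over the 6 *Tet2*-KO libraries, at 0.404 ± 0.230 and 0.109 ± 0.0833 CPM. Its scaled values did not overlap, but the gap was narrow and stood on few reads. The lowest WT value was 0.238 CPM and the highest *Tet2*-KO value 0.206 CPM. Among the tested genes, which do not include *Igfals*, 1.09% did not overlap. It lay outside the naming rule and was named after its values were seen. *Ntf5*, for neurotrophin 4, had 8 and 15 reads in all, *Fgf20* had 3 and 4, *Gfra3* had 7 and 8, and *Igfbp1* had 2 and 8.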
